A study of Mus musculus with 6 samples.

Results

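The enzymes that place DNA methylation, copy it and remove it were followed at the RNA level in 3 lines of mouse embryonic stem cells that had been derived by transfer of chromosomes. The set held 9 genes: the DNA methyltransferases Dnmt1, Dnmt3a and Dnmt3b, their catalytically inactive partner Dnmt3l, the hemimethylated-DNA binder Uhrf1, the methylcytosine dioxygenases Tet1, Tet2 and Tet3, and the DNA glycosylase Tdg. A gene was measured by the probe set that carried its symbol alone and had the highest mean over the arrays. This gave 8 genes out of 19938. Tdg was represented by 4 probe sets that also carried the symbol of its pseudogene Tdg-ps2, so it has no value here.

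The lines were ♂M-1, ♂M-3 and ZM-1, with 2 biological repeats each and 6 whole-transcript arrays in all. The study concerned the capacity of the parental pronuclei of the mouse zygote to reprogram. What the prefixes ♂M and ZM stand for is not explained in the labels, nor are the strain, the sex or the source of the transferred chromosomes. All 3 lines were grown alike, on gelatin with LIF and with inhibitors of MEK (PD0325901) and GSK3β (CHIR99021), a medium known as 2i with LIF. Each type was represented by few lines (♂M by 2, ZM by 1), so a difference between types and one between single lines cannot be told apart. Whether the repeats came from separate cultures is not said, and the p-values measure the spread between repeats of a line.

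Methylation of cytosine in the dinucleotide CG is set on unmethylated DNA by Dnmt3a and Dnmt3b, which Dnmt3l assists. After replication it is copied to the new strand by Dnmt1, which Uhrf1 guides to half-methylated sites. The Tet enzymes oxidise methylcytosine, and Tdg cuts the oxidised bases out for repair. In mouse embryonic stem cells, culture with both inhibitors is known to lower the de novo enzymes and Dnmt3l, in part through the repressor Prdm14, and to leave the genome poorly methylated. All lines here were kept in that medium, and no line in serum was measured.

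Values are intensities on a linear scale with no unit. Probe sets of different genes bind with different strength, so levels were compared between lines and not between genes. Median intensity over all probe sets lay between 67.2 and 71.3 in the 6 arrays and the lower quartile between 23.8 and 25.1. Precision is limited by having 2 arrays per line. Of the 8 genes, 7 had a mean above the median of 94.6 over all genes, and Tet3 lay close to it, at 94.0. Of the listed pluripotency markers, 10 of 10 lay above that median, but so did 10 of 12 fibroblast and 6 of 7 primed epiblast markers, so this level does not separate cell types. The mean of Pou5f1 was 3711 ± 39.1 (SD, n = 2) for ♂M-1, 3614 ± 75 for ♂M-3 and 3875 ± 4.67 for ZM-1. With 2 arrays against 2 an exact permutation test cannot go below p = 0.333 (two-sided), so the tests below are limma's moderated test, fitted to all genes and arrays, with Benjamini-Hochberg adjustment across 19938 genes. "Called" means an adjusted p under 0.05.

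The lines differed in the de novo arm of the pathway: every call among the 8 genes fell on Dnmt3a, Dnmt3b or Dnmt3l. Dnmt3a was lower in both ♂M lines than in ZM-1. Dnmt3b and Dnmt3l were called lower in ♂M-3 than in either other line, but the Dnmt3l call against ZM-1 was lost in 10 of 16 alternative analyses. Dnmt1, Uhrf1 and the 3 Tet genes were called between no pair of lines. Of the 8 genes, 1 was called for ♂M-1 against ZM-1, where 4.41% of all genes were called (1.89% higher and 2.53% lower in ♂M-1). For ♂M-3 against ZM-1 the count was 3, beside 15.9% of all genes (8.66% higher and 7.2% lower in ♂M-3). For ♂M-1 against ♂M-3 it was 2, beside 6.54% (3.22% higher and 3.32% lower in ♂M-1). The genes were chosen with earlier results of these data known.

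**Figure D1:**
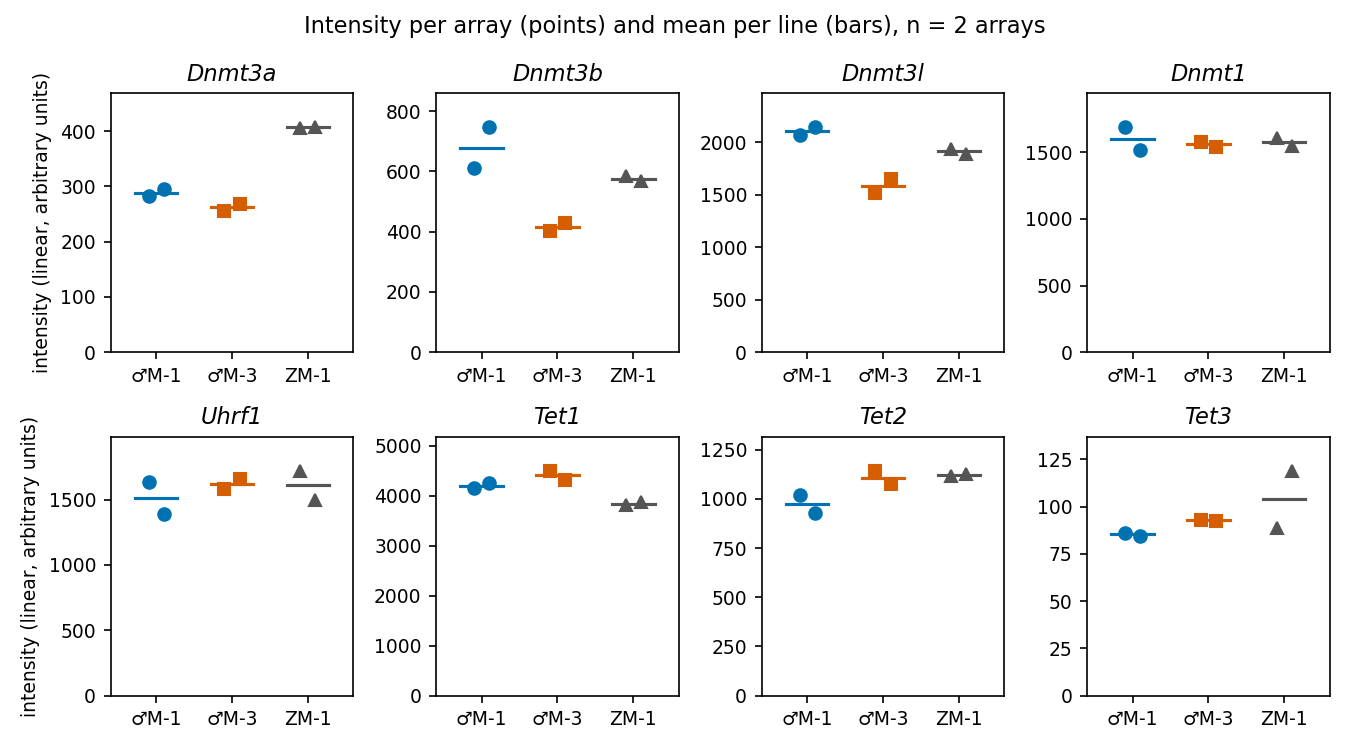
Intensity of the 8 measured genes (linear vertical axes from 0, each with its own scale) in the arrays of ♂M-1, ♂M-3 and ZM-1; points are arrays and bars are means of 2. In Dnmt3a the ZM-1 arrays, at 406 and 407, lie above all others, and in Dnmt3b and Dnmt3l the ♂M-3 arrays lie below all others.

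Dnmt3a, a de novo methyltransferase on chromosome 12, gave 282 and 295 for the repeats of ♂M-1, 255 and 269 for those of ♂M-3 and 406 and 407 for those of ZM-1. Both ZM-1 arrays were high, and neither ♂M line overlapped with them. The level in ♂M-1, 289 ± 8.90 (SD, n = 2), was 1.41-fold lower than the 407 ± 0.450 of ZM-1 (log2 difference -0.49, SE 0.075, limma adjusted p = 0.00773). In ♂M-3, at 262 ± 9.46 (SD, n = 2), it was 1.55-fold lower (log2 difference -0.63, SE 0.075, limma adjusted p = 8.49e-04). The ♂M lines were not called against each other, with a log2 difference of 0.14 (95% interval -0.03 to 0.31) and an adjusted p of 0.358 by limma. The difference between ♂M-3 and ZM-1 was called in all 16 alternative analyses. That between ♂M-1 and ZM-1 did not hold when ♂M-1 replicate 1 was left out (adjusted p = 0.0631 by limma), when ♂M-1 replicate 2 was (0.0544) and when every probe set was tested (0.0565).

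Dnmt3b, the other de novo methyltransferase and a marker of the primed epiblast, is encoded on chromosome 2. It gave 611 and 747 for the repeats of ♂M-1, 401 and 428 for those of ♂M-3 and 583 and 569 for those of ZM-1. The ♂M-3 arrays were the lowest pair and overlapped with no other line. The ♂M-1 arrays were the highest pair, and they also differed most from each other, with 679 ± 95.9 (SD, n = 2). Dnmt3b was 1.63-fold higher in ♂M-1 than in ♂M-3 (log2 difference 0.70, SE 0.10, limma adjusted p = 0.00457). Against ZM-1 it was 1.39-fold lower in ♂M-3 (log2 difference -0.47, SE 0.10, limma adjusted p = 0.0144). ♂M-1 was not called against ZM-1, with a log2 difference of 0.23 (95% interval 0.0001 to 0.46) and an adjusted p of 0.250 by limma. That difference was 0.085 without ♂M-1 replicate 2 and 0.37 without ♂M-1 replicate 1. The ♂M-3 call against ZM-1 did not hold when ♂M-3 replicate 1 was left out (adjusted p = 0.0915 by limma), when ♂M-3 replicate 2 was (0.0538) and when every probe set was tested (0.0687). The call between the ♂M lines was lost when every probe set was tested (adjusted p = 0.0571) and in none of the other 15 alternatives.

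Dnmt3l, which binds the de novo enzymes and stimulates them without methylating DNA itself, is encoded on chromosome 10. It gave 2066 and 2145 for the repeats of ♂M-1, 1516 and 1653 for those of ♂M-3 and 1938 and 1894 for those of ZM-1. The order was that of Dnmt3b, with ♂M-1 high, ZM-1 between and ♂M-3 low, and no lines overlapped. The level was 1.33-fold higher in ♂M-1 than in ♂M-3 (log2 difference 0.41, SE 0.079, limma adjusted p = 0.0167). It was 1.21-fold lower in ♂M-3 than in ZM-1 (log2 difference -0.28, SE 0.079, limma adjusted p = 0.0447). The difference between ♂M-1 and ZM-1, 0.14 log2 units (95% interval -0.04 to 0.31), was not called (adjusted p = 0.387 by limma). Of the member calls, those of Dnmt3l were lost in the most alternatives. The call of ♂M-3 against ZM-1 was lost in 10 of 16 alternatives, among them the removal of any single array (limma adjusted p from 0.0657 to 0.246), median centring (0.110), a fit of those lines alone (0.0657), the replicate block (0.0622) and the test of every probe set (0.103). The call between the ♂M lines was lost in 5 of 16, among them the removal of any single ♂M array (limma adjusted p from 0.0550 to 0.137).

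The DNA before transcript starts of these 3 genes is shown because they are the members that differed, and because CG, the substrate of the enzymes, is unequally dense there. The Dnmt3a windows lie inside the annotated gene (chr12:3801559-3914443), before internal starts, and its first annotated start has no window here. Upstream and downstream in the labels give only the order of the windows. Each sequence holds the 250 bases before a transcript start, from RefSeq on build GRCm38.p6, written 5′ to 3′ with each CG in capitals. CG reads the same on both strands. Over all 32851 such windows the median was 6 CG, and 92.1% of windows held at least 1. The CG counts describe the sequence: methylation was not measured in this series.
Dnmt3a, upstream window (chr12:3806730-3806979, plus strand): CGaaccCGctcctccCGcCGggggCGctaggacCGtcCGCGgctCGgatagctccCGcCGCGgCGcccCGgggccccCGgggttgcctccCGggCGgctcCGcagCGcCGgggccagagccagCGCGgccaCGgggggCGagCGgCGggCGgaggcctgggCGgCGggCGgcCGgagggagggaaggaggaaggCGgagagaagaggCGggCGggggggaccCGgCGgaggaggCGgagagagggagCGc
Dnmt3a, downstream window (chr12:3891494-3891743, plus strand): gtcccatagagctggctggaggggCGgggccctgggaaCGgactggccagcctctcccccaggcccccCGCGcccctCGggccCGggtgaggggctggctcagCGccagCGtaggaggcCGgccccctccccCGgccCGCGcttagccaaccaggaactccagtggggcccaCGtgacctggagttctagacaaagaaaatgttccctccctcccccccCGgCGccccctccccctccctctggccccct
Dnmt3b (chr2:153649199-153649448, plus strand): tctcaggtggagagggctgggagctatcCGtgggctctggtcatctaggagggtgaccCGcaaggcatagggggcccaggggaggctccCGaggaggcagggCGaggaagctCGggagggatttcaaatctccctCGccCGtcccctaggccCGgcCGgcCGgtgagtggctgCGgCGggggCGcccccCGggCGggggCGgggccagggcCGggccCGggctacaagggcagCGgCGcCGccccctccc
Dnmt3l, upstream window (chr10:78042037-78042286, plus strand): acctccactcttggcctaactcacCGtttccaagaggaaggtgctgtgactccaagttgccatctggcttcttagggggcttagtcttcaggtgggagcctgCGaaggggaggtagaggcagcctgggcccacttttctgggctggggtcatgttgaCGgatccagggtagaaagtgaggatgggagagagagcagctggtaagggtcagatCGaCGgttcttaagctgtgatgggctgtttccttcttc
The first Dnmt3a window held 38 CG, more than 98.1% of all windows, and the downstream window held 15. A window that overlaps the first held 40. The Dnmt3b window held 21 CG. The Dnmt3l window held 5, fewer than the median, and the other windows listed for Dnmt3l held 4 and 3. The windows listed for Dnmt3b and Dnmt3l thus differ in CG density, and a relation of CG density to the intensities was not tested. The array gave Dnmt3a and Dnmt3l as 1 value each, so their transcripts from different starts are not separated here.

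The maintenance genes were called between no pair of lines, and their arrays overlapped throughout. Dnmt1, the maintenance methyltransferase, gave 1688 and 1519 for the repeats of ♂M-1, 1577 and 1540.4 for those of ♂M-3 and 1604 and 1543 for those of ZM-1. All lines overlapped, and the spread within ♂M-1 exceeded any difference between line means. Uhrf1, the binder of half-methylated DNA, gave 1635 and 1391 for the repeats of ♂M-1, 1581 and 1659.7 for those of ♂M-3 and 1721 and 1496 for those of ZM-1, again with all lines overlapping. For Dnmt1 the limma adjusted p lay at 0.902 for ♂M-1 against ZM-1, 0.935 for ♂M-3 against ZM-1 and 0.862 between the ♂M lines. For Uhrf1 the values were 0.685, 0.950 and 0.669. Over both genes and the 3 pairs, the 95% intervals reached from -0.34 to 0.25 log2 units, so differences of that size are not excluded by these arrays.

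**Figure D2:**
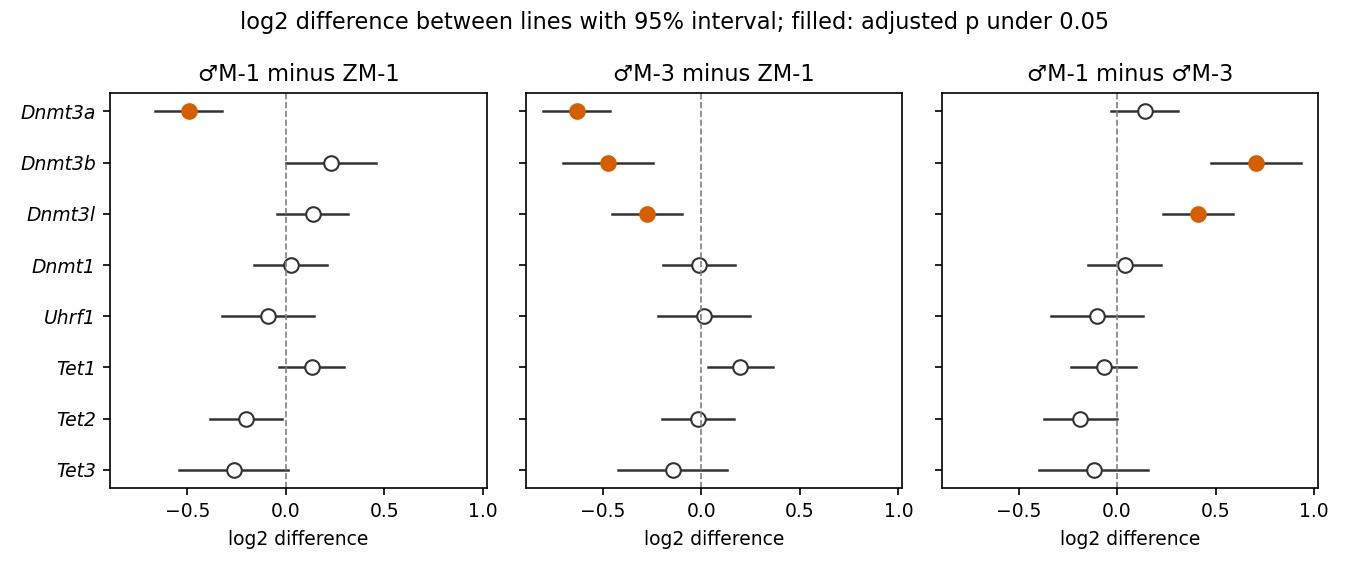
Difference in log2(intensity + 1) of the 8 genes for each pair of lines; points are limma estimates from 2 arrays per line, lines are 95% intervals, and filled points have an adjusted p under 0.05. Filled points lie in the Dnmt3a, Dnmt3b and Dnmt3l rows, and the Dnmt1 and Uhrf1 intervals span 0 in every panel.

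The Tet dioxygenases were not called either, and Tet1 came nearest. Tet1, the Tet enzyme known as abundant in embryonic stem cells, gave 4162 and 4252 for the repeats of ♂M-1, 4502 and 4315 for those of ♂M-3 and 3808 and 3876 for those of ZM-1. The ZM-1 arrays were the lowest pair and overlapped with no other line. The log2 difference of ♂M-3 from ZM-1 was 0.20 (95% interval 0.03 to 0.36), with an adjusted p of 0.104 by limma. It was called with a pseudocount of 16 (adjusted p = 0.0435), after median centring (0.0434), among genes above the 50th percentile (0.0386) and with limma's trended, robust variances (0.00532). The 2 other Tet1 probe sets differed by 0.21 and 0.07 log2 units for that pair, with adjusted p of 0.205 and 0.623 by limma over all probe sets.

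Tet2, the second member of the family expressed in these cells, gave 1019.8 and 929.7 for the repeats of ♂M-1, 1143 and 1073 for those of ♂M-3 and 1114 and 1128 for those of ZM-1. ♂M-1 was the lowest line, without overlap, while ♂M-3 and ZM-1 overlapped. Its log2 difference was -0.20 from ZM-1 and -0.19 from ♂M-3, with adjusted p of 0.207 and 0.245 by limma. Tet3, known from the oocyte and zygote, gave 86.1 and 84.5 for the repeats of ♂M-1, 93.0 and 92.5 for those of ♂M-3 and 88.6 and 119 for those of ZM-1. The second ZM-1 array stood apart from the other 5. Without ZM-1 replicate 1, Tet3 was called lower in ♂M-1 (adjusted p = 0.0292 by limma) and in ♂M-3 (0.0359), and without ZM-1 replicate 2 the adjusted p was 0.813 and 0.702. A second Tet3 probe set lay between 54.1 and 62.6 in all arrays, with adjusted p of at least 0.432.

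Genes above the median level, where 7 of the 8 lay, were called more often than all genes: 5.75% for ♂M-1 against ZM-1, 22.4% for ♂M-3 against ZM-1 and 9.81% for ♂M-1 against ♂M-3. At an unadjusted p under 0.05 the counts among the 8 genes were 3, 4 and 3, in the same order. The arrays of the lines did not overlap for 6, 4 and 6 of the 8 genes, against 48.9%, 57.5% and 50.5% of all genes, so lack of overlap was common on these arrays. The median log2 difference of the 8 genes was -0.03, -0.08 and -0.01, beside -0.01, 0.002 and -0.02 over all genes. Against ZM-1 both comparisons share the ZM-1 arrays. The direction of calls over all genes depended on scaling: 42.7% of the genes called between ♂M-1 and ZM-1 were higher in ♂M-1, and 62.0% after median centring. For ♂M-3 against ZM-1 the shares were 54.6% and 70.9%. The calls of Dnmt3a and Dnmt3b kept their direction and their side of the threshold under median centring and quantile normalization.

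Regulators of these enzymes and markers of the naive state, listed together and called regulators below, were in part higher in ♂M-3. Of 8 measured genes, 5 were called higher in ♂M-3 than in ZM-1, beside 8.66% of all genes, and the median difference was 0.31 log2 units. For ♂M-1 against ♂M-3, 3 were called lower in ♂M-1, beside 3.32% of all genes. Among genes above the median level, where 7 of the 8 lay, 22.4% and 9.81% were called in either direction in these comparisons. The list was chosen with earlier results of these data known, so these shares describe it and are no test of it. Prdm14, the repressor of Dnmt3b and Dnmt3l in naive cells, gave 321 and 256 for the repeats of ♂M-1, 401 and 429.6 for those of ♂M-3 and 291 and 264 for those of ZM-1. The ♂M-3 arrays were above all others, and the other lines overlapped. It was 1.5-fold higher in ♂M-3 than in ZM-1 (limma adjusted p = 0.00932, and 0.0681 without ♂M-3 replicate 2) and 1.44-fold lower in ♂M-1 than in ♂M-3 (0.0250, lost without ♂M-1 replicate 2 or either ♂M-3 array, up to 0.171). Both Prdm14 calls were also lost when every probe set was tested. Between ♂M-1 and ZM-1, which differed in Dnmt3a, Prdm14 was not called (limma adjusted p = 0.85). A relation of Prdm14 to the levels of the de novo genes in these lines was not tested.

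**Figure D3:**
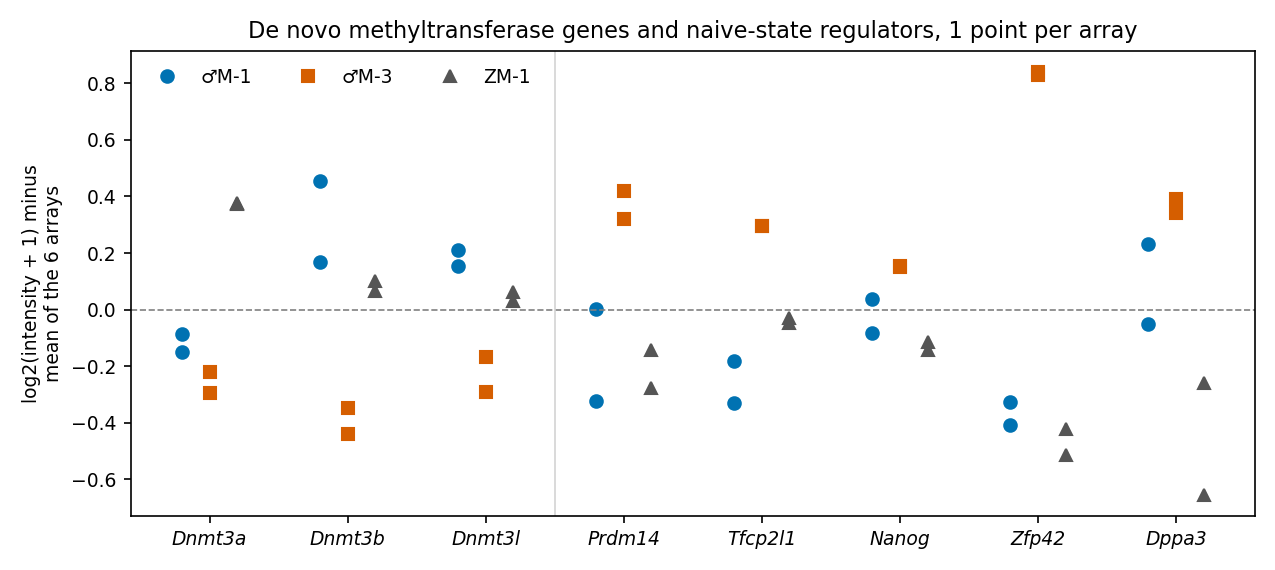
log2(intensity + 1) of each array minus the mean of the 6 arrays, for the 3 de novo genes (left of the vertical line) and 5 regulators or markers of the naive state; symbols mark the lines. The ♂M-3 arrays lie lowest in Dnmt3a, Dnmt3b and Dnmt3l and highest in Prdm14, Tfcp2l1, Nanog, Zfp42 and Dppa3. These 5 are the genes of the list of 8 that were called higher in ♂M-3 than in ZM-1, so their place above ZM-1 follows from the choice. Lin28a, Lin28b and Mycn are not shown.

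Zfp42, a naive marker also known as Rex1, measured 671 ± 3.77 (SD, n = 2) in ♂M-3 and was 2.47-fold higher than in ZM-1 (limma adjusted p = 2.40e-05) and 2.30-fold higher than in ♂M-1 (8.64e-05). Dppa3, which can shield DNA from Uhrf1 and so oppose maintenance methylation, reached 117 ± 3.0 (SD, n = 2) for ♂M-3 against 66.5 ± 12.9 for ZM-1, a 1.77-fold higher level (limma adjusted p = 0.00438). In ♂M-1 it lay between them, at 97.2 ± 13.6 (SD, n = 2), 1.46-fold above ZM-1. ♂M-1 was called neither against ZM-1 (limma adjusted p = 0.0588) nor against ♂M-3 (0.309). Tfcp2l1, a factor of the naive network, was 1.26-fold higher in ♂M-3 than in ZM-1 (limma adjusted p = 0.0226) and 1.47-fold lower in ♂M-1 than in ♂M-3 (0.00458). Nanog was 1.22-fold higher in ♂M-3 than in ZM-1 (limma adjusted p = 0.0384) and was not called between the ♂M lines (0.249). The Tfcp2l1 and Nanog calls against ZM-1 were lost without either ♂M-3 or either ZM-1 array (adjusted p up to 0.111 and 0.161), and the Tfcp2l1 call between the ♂M lines without ♂M-1 replicate 2 (0.0527). The Nanog call was also lost after quantile normalization. Lin28b, an RNA-binding protein, was the 1 regulator called between ♂M-1 and ZM-1, 1.31-fold higher in ♂M-1 (limma adjusted p = 0.0467), and that call was lost without any 1 of the 6 arrays (up to 0.249). Mycn, at 803 ± 1.71 (SD, n = 2) in ♂M-3, 1055 ± 182 in ♂M-1 and 886 ± 36.0 in ZM-1, was lowest in ♂M-3. Lin28a, at 739 ± 9.55 (SD, n = 2) in ♂M-3, 810 ± 51.4 in ♂M-1 and 682 ± 12.7 in ZM-1, was highest in ♂M-1, as was Lin28b. Mycn and Lin28a were called between no pair of lines (limma adjusted p of at least 0.0854 and 0.125). Of the 8 regulators, Nanog, Tfcp2l1 and Zfp42 also stand in the pluripotency marker list.

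Other genes linked to the pathway, called pathway genes below, were taken from 6 lists of 67 genes, of which 60 were measured. The 60 include the 8 regulators and naive markers above and 14 germline genes, which are not themselves part of the methylation machinery. Between ♂M-1 and ZM-1, 1 was called higher and 2 lower in ♂M-1 (5.0% of the 60). Between ♂M-3 and ZM-1, 11 were higher and 7 lower in ♂M-3 (30.0%), and between the ♂M lines 1 was higher and 7 lower in ♂M-1 (13.3%). These shares stand beside 5.75%, 22.4% and 9.81% of all genes above the median level, where 47 of the 60 lay. The lists were chosen with earlier results of these data known, so the shares are no test of them.

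**Figure D4:**
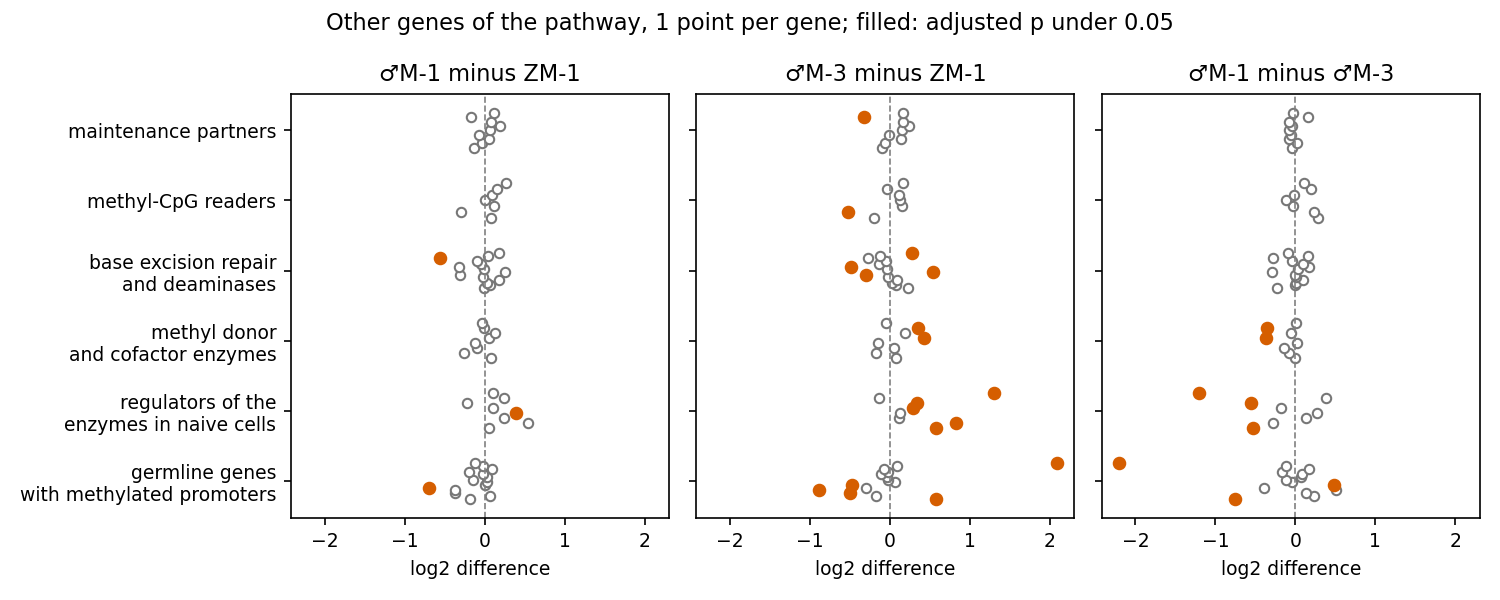
Difference in log2(intensity + 1) of the 60 other pathway genes for each pair of lines, by list; each point is 1 gene, and filled points have an adjusted p under 0.05. The regulators called in ♂M-3 against ZM-1 all lie above 0, and 1 of 9 maintenance partners is called, below 0.

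Of 9 partners of maintenance methylation, 1 was called for ♂M-3 against ZM-1 (11.1%, beside 15.9% of all genes). Hells, a chromatin remodeller needed for methylation, and Usp7, which stabilises Dnmt1, were called between no pair (limma adjusted p of at least 0.510 and 0.686). The called partner was Zfp57, which protects methylation at imprinted loci and was 1.25-fold lower in ♂M-3 (limma adjusted p = 0.0237, lost without either ♂M-3 or either ZM-1 array, up to 0.161). For that pair 2 of the 9 had an unadjusted p under 0.05, and 3 were called with limma's trended, robust variances. For ♂M-1 against ZM-1, 0 of 9 were called by limma (beside 4.41% of all genes), with 1 at an unadjusted p under 0.05 and 0 with trended, robust variances. Between the ♂M lines (beside 6.54%) the 3 counts were 0, 0 and 0.

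Of 7 measured readers of methylated CG, 1 was called for ♂M-3 against ZM-1, and none for the other pairs. That 1 was 14.3% of the list, beside 15.9% of all genes and 22.4% of those above the median level. The called reader was Mbd2, a repressor subunit. It reached 370.4 ± 8.21 (SD, n = 2) for ZM-1 and 258 ± 7.67 for ♂M-3, 1.44-fold lower (limma adjusted p = 0.00266), and the call was kept whichever array was left out. Of 14 base excision repair and deaminase genes, 2 were higher and 2 lower in ♂M-3 than in ZM-1. These calls made 28.6% of the 14, beside the same 15.9% and 22.4%. The glycosylase Neil1 was 1.46-fold higher (limma adjusted p = 0.00179) and its relative Neil3 1.4-fold lower (0.00457), both kept whichever array was left out. Polb, the repair polymerase, was 1.23-fold lower (limma adjusted p = 0.0331, lost without either ♂M-3 or either ZM-1 array, up to 0.175) and the stress gene Gadd45b 1.22-fold higher (0.0423, lost without any 1 of the 6 arrays, up to 0.194). Median centring also ended the Polb call, and quantile normalization that of Gadd45b. The cytidine deaminase Apobec1 stood 1.47-fold below ZM-1 in ♂M-1 (limma adjusted p = 0.0400), a call kept only without ZM-1 replicate 2 among the 6 removals (up to 0.223 in the others).

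Enzymes that supply methyl groups and Tet cofactors held 2 calls among 8 measured genes for ♂M-3 against ZM-1, both higher in ♂M-3. These 2 of 8 stand beside 15.9% of all genes and 22.4% of those above the median level, where all 8 lay. The count was thus close to the share of genes at that level. Between the ♂M lines the shares were 6.54% and 9.81%, beside the same 2 genes. The mitochondrial serine hydroxymethyltransferase Shmt2 had a mean of 1864 ± 18.5 (SD, n = 2) for ♂M-3, 1445 ± 47.0 for ♂M-1 and 1387 ± 61.4 for ZM-1. It was 1.34-fold higher in ♂M-3 than in ZM-1 (limma adjusted p = 0.00650, and 0.0520 without ♂M-3 replicate 2). Idh2, which makes the Tet cofactor 2-oxoglutarate in mitochondria, was 1.27-fold higher (limma adjusted p = 0.0178, lost without either ♂M-3 array or ZM-1 replicate 2, up to 0.117). Both were also called between the ♂M lines (limma adjusted p = 0.0234 and 0.0304), which was lost without any of the 4 ♂M arrays (up to 0.167 and 0.212).

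Most fibroblast markers were lower in ♂M-3, the line with low Dnmt3b and Dnmt3l. Dnmt3a was low in both ♂M lines. Of 12 fibroblast markers, 10 were lower and 2 higher in ♂M-3 than in ZM-1, beside 7.2% lower and 8.66% higher among all genes, and their summed intensity ran from 3359 to 3383 in ♂M-3, 4320.3 to 4732 in ♂M-1 and 4705 to 4849.7 in ZM-1. Dcn, a matrix proteoglycan, measured 571 ± 35.3 (SD, n = 2) in ZM-1, 214 ± 32.6 in ♂M-1 and 104 ± 11.3 in ♂M-3. The collagen Col1a1 measured 819 ± 11.8 (SD, n = 2), 886 ± 30.5 and 549.6 ± 52.9. Lum, a defining fibroblast gene, lay below the lower quartile of the arrays, with a mean of 14.7, and its call was lost in 5 of the 6 removals of an array (adjusted p up to 0.233 by limma). The calls of Col1a2, Postn and S100a4 were also lost on removal of ♂M-3 arrays (up to 0.0546, 0.0654 and 0.101). Primed epiblast markers other than Dnmt3b had 1 of 6 lower in ♂M-3 than in ZM-1, the growth factor Fgf5 at 1.62-fold (limma adjusted p = 0.00247), and summed intensities of 1758 to 1829 in ♂M-3, 1927 to 2095 in ♂M-1 and 1827 to 1936 in ZM-1. Of the other markers, 1 of 8 primitive endoderm genes was higher and 1 lower in ♂M-3 than in ZM-1, as were 1 and 1 of 9 trophectoderm genes, 3 and 1 of 7 germ cell genes, 0 and 4 of 8 blood and immune genes, and 0 and 1 of 5 neural genes, read against the same 8.66% and 7.2% of all genes. Of the 4 blood and immune calls, that of Ptprc was lost in 5 and that of Csf1r in 6 of 6 removals (limma adjusted p up to 0.191 and 0.204), and 2 of the 8 genes were called with trended, robust variances. In ♂M-1, 1 of the 12 fibroblast markers was called higher and 3 lower than in ZM-1, beside 1.89% and 2.53% of all genes. Among these, only the Dcn call was kept whichever array was left out. Between the ♂M lines, 9 were higher and 1 lower in ♂M-1, beside 3.22% and 3.32%, and some of these calls were lost on removal of a ♂M array. The marker lists too were chosen with earlier results of these data known. The part of other cell types in the Dnmt3a, Dnmt3b and Dnmt3l differences was not tested. In bulk RNA, fewer cells of a type and less RNA per cell cannot be told apart.

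Genes with profiles most like those of Dnmt3a and Dnmt3b were sought among 9625 named genes above the median level, by Euclidean distance between log2 values centred on each gene's mean over the 6 arrays. For Dnmt3a, 4 of the 5 nearest were the granin Chga (distance 0.11), the collagen-modifying enzyme Plod1 (0.11), the interferon-induced exonuclease Isg20 (0.13) and the matrix protein Prelp (0.13), where the size of the Dnmt3a profile itself was 0.67. Plod1 measured 920.0 ± 16.2 (SD, n = 2) in ZM-1, 640.4 ± 12.9 in ♂M-1 and 566 ± 2.40 in ♂M-3. For Dnmt3b they were the adaptor gene Sh3kbp1 (0.13), the cytochrome P450 gene Cyp1b1 (0.14), the kinase Map3k20 (0.15), the peroxidase Gpx8 (0.15) and the signal peptide peptidase gene H13 (0.16), against a profile size of 0.75. H13 measured 811 ± 55.8 (SD, n = 2) in ♂M-1, 661 ± 47.2 in ZM-1 and 504 ± 23.6 in ♂M-3.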

How the data were processed

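RNA of 6 samples was measured on whole-transcript arrays. The authors deposited linear intensity values summarised for each probe set on each array. GCOS version 1.4 is named in the submitters' processing notes. The sources used here do not state background correction, summarisation or normalization, and the values were not normalized further. Of 35556 probe sets, 21789 carried 1 gene symbol in the platform annotation, 1621 several and 12146 none. For each of 19938 genes the single-symbol probe set with the highest mean was kept.

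The deposited intensities were transformed as log2 of intensity plus 1. A model with a mean per line was fitted to the 6 arrays with limma 3.58.1 in R 4.3.3, with 3 residual and 6.01 prior degrees of freedom, and was tested on simulated data. Where an array was left out, the lone array of its line was taken to vary like the others. Alternatives were other pseudocounts, filters, scalings, probe set rules, variance models and samples, and the replicate number as a block. Named genes were the members, up to 4 called genes with the largest difference per pathway list and pair, the nearest profiles to 2 members, and Prdm14, Dppa3, Hells, Usp7, Pou5f1, Nanog, Zfp42, Col1a1 and Dcn. Genes named outside this rule, after their values were seen, were Fgf5, Lum, Col1a2, Postn, S100a4, Ptprc, Csf1r, Lin28a, Mycn, Asz1, Slc25a31, Taf7l, Stk31 and Tdrd1. Listed genes with no single-symbol probe set, Mat2a among them, were not analysed here. One of the nearest profiles is not reported here. The members and lists were chosen with earlier results of these data known.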

Additional observations from a re-analysis of the deposited data

Results flagged for a closer look

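Dnmt3b and Dnmt3l lay on opposite sides of ZM-1 in the ♂M lines, although ♂M-1 was called against ZM-1 for neither gene. Both ♂M-1 arrays lay above both ZM-1 arrays and both ♂M-3 arrays below them, for each gene. Such lack of overlap was common: it held for 48.9% of all genes between ♂M-1 and ZM-1 and 57.5% between ♂M-3 and ZM-1. The log2 difference from ZM-1 in ♂M-1 minus that in ♂M-3 was 0.70 for Dnmt3b and 0.41 for Dnmt3l. The Dnmt3b difference between ♂M-1 and ZM-1 was 0.085 when ♂M-1 replicate 2 was left out and 0.37 when its replicate 1 was left out. The contrast between the differences is the test between the ♂M lines, with limma adjusted p of 0.00457 and 0.0167. Lines of 2 arrays are too small for a test of single outlying arrays.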

How the results depend on the processing

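Each comparison was repeated under 16 alternatives. The Dnmt3a call of ♂M-3 against ZM-1 was kept in all of them, with log2 differences between -0.69 and -0.58. Testing every probe set left 0 of the 8 genes called for ♂M-1 against ZM-1, 1 for ♂M-3 against ZM-1 and 0 between the ♂M lines. It left 0, 8 and 3 of the 60 pathway genes. The pathway count for ♂M-1 against ZM-1 was 6 with a pseudocount of 16, 6 among genes above the 25th percentile, 9 above the 50th percentile, 10 with trended, robust variances and 1 with only the 2 lines compared. Between the ♂M lines it was 14 with trended, robust variances. Leaving out 1 array gave 0 to 2 members called for ♂M-1 against ZM-1, 1 to 3 for ♂M-3 against ZM-1 and 1 to 2 between the ♂M lines, and 0 to 3, 9 to 18 and 2 to 9 pathway genes.

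Differences near 0 changed sign. Dnmt1 had -0.018 for ♂M-1 against ZM-1 after quantile normalization and 0.044 for ♂M-3 against ZM-1 after median centring. Uhrf1 had -0.053 after quantile normalization and Tet2 0.040 after median centring, both for ♂M-3 against ZM-1. With 1 array left out, Dnmt1 lay between -0.051 and 0.10 for ♂M-1 against ZM-1, between -0.041 and 0.014 for ♂M-3 against ZM-1 and between -0.038 and 0.11 between the ♂M lines. Uhrf1 lay between -0.21 and 0.027, between -0.087 and 0.11 and between -0.22 and 0.014. For ♂M-3 against ZM-1, Tet2 lay between -0.063 and 0.028 and Tet3 between -0.36 and 0.066.

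The replicate numbers did not pair the arrays: deviations of equally numbered arrays correlated at 0.02, 0.05 and -0.14 over 9969 genes. With the replicate block, the Dnmt3l call of ♂M-3 against ZM-1 was lost (adjusted p = 0.0622), and over all genes 686, 2769 and 1070 were called in place of 880, 3162 and 1303. The block changed no other call among the 8 genes. Among the other pathway genes it also ended the calls of Polb and Nanog for ♂M-3 against ZM-1 and of Lin28b for ♂M-1 against ZM-1. The block also leaves fewer residual degrees of freedom, and the cause of these changes was not tested. Without detection calls, it is unknown how far Tet3, the dimmest of the 8 probe sets, lay above background.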

Other observations

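Germline genes known to be silenced by promoter methylation did not move one way. The list rests on general knowledge and was chosen with earlier results of these data known. No methylation was measured. Of 14 measured, 2 were higher and 3 lower in ♂M-3 than in ZM-1 (35.7% called, beside 15.9% of all genes, 8.66% higher and 7.2% lower), with a median log2 difference of -0.06. Rpl10l, a retrogene copy of Rpl10 used in male meiosis, measured 770.1 and 830.2 in the ♂M-3 arrays, 179 and 196 in the ZM-1 arrays and 188 and 158 in the ♂M-1 arrays. The ♂M-3 arrays were the high ones (limma adjusted p = 6.59e-06 against ZM-1). Cross-hybridisation with transcripts of Rpl10 was not tested. Dazl, an RNA-binding protein of germ cells, measured 82.8 and 89.5 in the ♂M-3 arrays against 64.4 and 51.4 in ZM-1 (limma adjusted p = 0.0130, up to 0.0874 when replicate 2 of either line was left out). Lower in ♂M-3 were Sycp1, a synaptonemal complex protein, at 27.2 ± 2.90 (SD, n = 2) against 51.7 ± 12.8, the helicase Ddx4 at 146 ± 4.06 against 208 ± 21.4, and Tex19.1 at 72.1 ± 3.99 against 101 ± 10.2. The ♂M-3 arrays of Sycp1, at 25.2 and 29.3, lay near the lower quartile of 23.8 to 25.1, so that gene was dim there. The Ddx4 and Tex19.1 calls were lost without ♂M-3 replicate 1 (limma adjusted p = 0.0640 and 0.0785). In ♂M-1, Sycp3 was 1.62-fold lower than in ZM-1 (limma adjusted p = 0.00683, and 0.0539 without ♂M-1 replicate 2). Between the ♂M lines, Rpl10l and Dazl were lower and Tex19.1 higher in ♂M-1. The Tex19.1 call was lost without any of the 4 ♂M arrays (limma adjusted p up to 0.132) and the Dazl call when replicate 2 of either ♂M line was left out (up to 0.0849). Asz1, Slc25a31, Taf7l, Stk31 and Tdrd1 were dim in all lines, near the lower quartile or under it.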
